A study of Mus musculus with 16 samples.

Results

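The genes described here are the secreted Wnt ligands of the mouse, their Frizzled receptors (Fzd), and the secreted inhibitors of the Sfrp and Dkk families. They were chosen by name alone: a gene spot belonged if its name in the scanner files or its symbol on the platform began with Wnt, Fzd, Sfrp or Dkk followed by a number. The rule found 37 genes on 39 of the 24109 gene probes of a spotted mouse array. These were 19 Wnt genes with 19 probes, 10 Frizzled genes with 11 probes, 4 Sfrp genes with 5 probes and 4 Dkk genes with 4 probes, with Fzd5 and Sfrp1 carrying 2 probes each.

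The study built a microfluidic rotary mixer in which the RNA of an individual cell is reverse-transcribed, and read gene expression on 16 arrays, each hybridised with 1 Cy5-labelled sample. The adult RNA came from the forebrain of a wild-type female B6.C3Sn mouse. The 3 control arrays received 15 µg of it without amplification and the 3 microfluidic arrays 10 pg, reverse-transcribed for 20 min in 7 nL inside the mixer. For the 3 conventional arrays the 10 pg were reverse-transcribed for 20 min in 10 µL in a tube. The cDNA of both 10 pg groups went through 40 rounds of template-switching PCR in tubes. Embryonic material came from OF1 mice at embryonic day 14: 4 arrays each carried 1 cell dissociated from explants of the caudal ganglionic eminence (CGE), the forebrain region that produces many cortical interneurons, lysed and reverse-transcribed for 25 min in the mixer and amplified by 40 cycles. The 3 explant arrays received 5 µg of unamplified explant RNA, which the extraction protocol calls telencephalon. Explant and control arrays therefore differ in age, strain, region, RNA amount and labelling chemistry at once, and these cannot be told apart. The animals behind the 4 cells are not named, so the cells were treated as 1 sample and described without a test, and nothing in the labels says that the 3 arrays of a group came from separate animals, so the p-values measure the spread between these arrays, which may be technical.

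Wnt proteins are lipid-modified ligands that bind Frizzled receptors at the cell surface. With the co-receptors Lrp5 and Lrp6 they stabilise β-catenin, which switches on target genes together with TCF and LEF factors, while other Wnt and Frizzled pairs act on cell polarity and movement. Sfrp proteins carry a Frizzled-like domain and bind Wnt ligands outside the cell, whereas Dkk1, Dkk2 and Dkk4 act on the Lrp co-receptors. In the embryonic forebrain the pathway is known for patterning the dorsal midline and for balancing progenitor growth against differentiation.

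The amplified and unamplified arrays were made with different primers, and the primer sequences are shown because every contrast of the mixer or tube with the control crosses this difference. The control RNA was labelled from random hexamers. The 10 pg samples and the cells were primed at the poly(A) tail with an oligo(dT) primer and switched at the 5′ end of the transcript to a second oligonucleotide, and 1 PCR primer then copied everything between them. All are written 5′ to 3′, with the part that both oligonucleotides share with the PCR primer in capitals.
PCR primer: AAGCAGTGGTATCAACGCAGAGT
Smart A, the template-switching oligonucleotide: AAGCAGTGGTATCAACGCAGAGTacgcggg
3′ CDS, the oligo(dT) primer, without its 2 mixed last letters: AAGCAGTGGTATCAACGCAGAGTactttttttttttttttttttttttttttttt
The oligo(dT) primer holds 30 T bases after the shared part. The array probes' own sequences were not used here.

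In what follows, net intensity is the median brightness of a spot at the scanner wavelength minus the median of its local background. A probe was called detected where its brightness exceeded the local background by more than 2 SD of that background. Conventional array 1, whose file holds no background SD, used the 95th percentile of the 723 blank spots instead. Spots that the scanner software marked bad count as not detected unless they are saturated. Fitted differences are on the log2 scale after background correction and quantile normalization over all 16 arrays, so a probe can lie higher in a fit than in its net intensity on arrays that were dim as a whole. The median net intensity over all gene probes was 3390.5 to 4259.5 on the control arrays, 834.5 to 1551.5 on the microfluidic, 177.5 to 212 on the conventional, 817.5 to 1683.5 on the cell and 173 to 1101.5 on the explant arrays. Each scan session named in the file headers holds arrays of 1 group, and the headers of the conventional arrays give none, so session and group cannot be told apart. The number of arrays, 3 or 4 a group, limits the precision.

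More family members were detected on each adult control array than on any other array. Of the 39 probes, 30, 26 and 25 were detected on the 3 control arrays. The mixer gave 21, 14 and 18, and the tube 15, 0 and 2. The 15 of conventional array 1 rest on the blank-spot limit and became 3 with the mean background SD of its group filled in. The cells showed 20, 18, 12 and 10 of the 39, and the explants 13, 6 and 11. The spread within groups was therefore wide, and conventional array 2 detected no member.

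**Figure D1:**
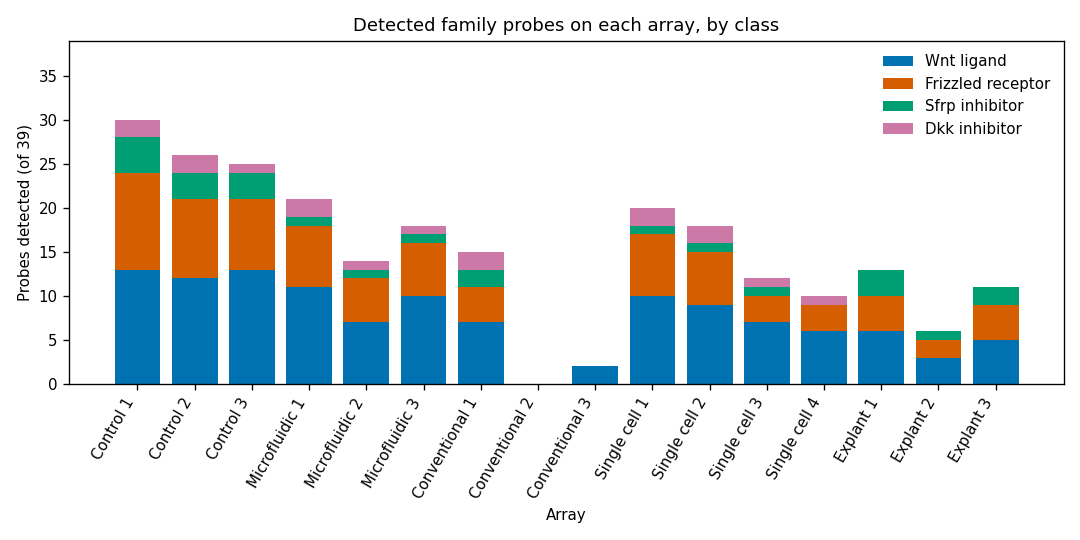
Bars give the number of family probes detected on each of the 16 arrays (vertical axis, of 39 probes), stacked by class. The control arrays stand highest at 25 to 30, and conventional arrays 2 and 3 lowest at 0 and 2, while the 15 of conventional array 1 rest on the blank-spot limit.

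Detection of the family ran close to that of the whole array. In the control, 59% of the family probes were detected on all 3 arrays, against 57.1% of all gene probes. On all 3 microfluidic arrays it was 33.3% against 28.2%, on all 4 cells 15.4% against 17.1%, and on all 3 explant arrays 15.4% against 11.8%. Frizzled receptors were the class most often seen in the control, with 8 of 11 probes on all 3 arrays and none of the 11 missing from all of them. Dkk inhibitors were seen on no explant array with any of their 4 probes, and 66.6% of all gene probes were likewise seen on none. Wnt3, Wnt10a, Wnt10b, Wnt11 and Dkk2 were detected on none of the 16 arrays, which leaves 34 probes detected somewhere. Among the rest, Wnt7a was detected on 1 control, 1 microfluidic and 1 cell array, Sfrp2 on 2 arrays, and Sfrp4 on 1 control array. Fzd1, a receptor that signals through β-catenin, was above the limit on 1 array in each group but the cells, with net intensities there of 2975, 23773, 1081 and 2513.

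**Figure D2:**
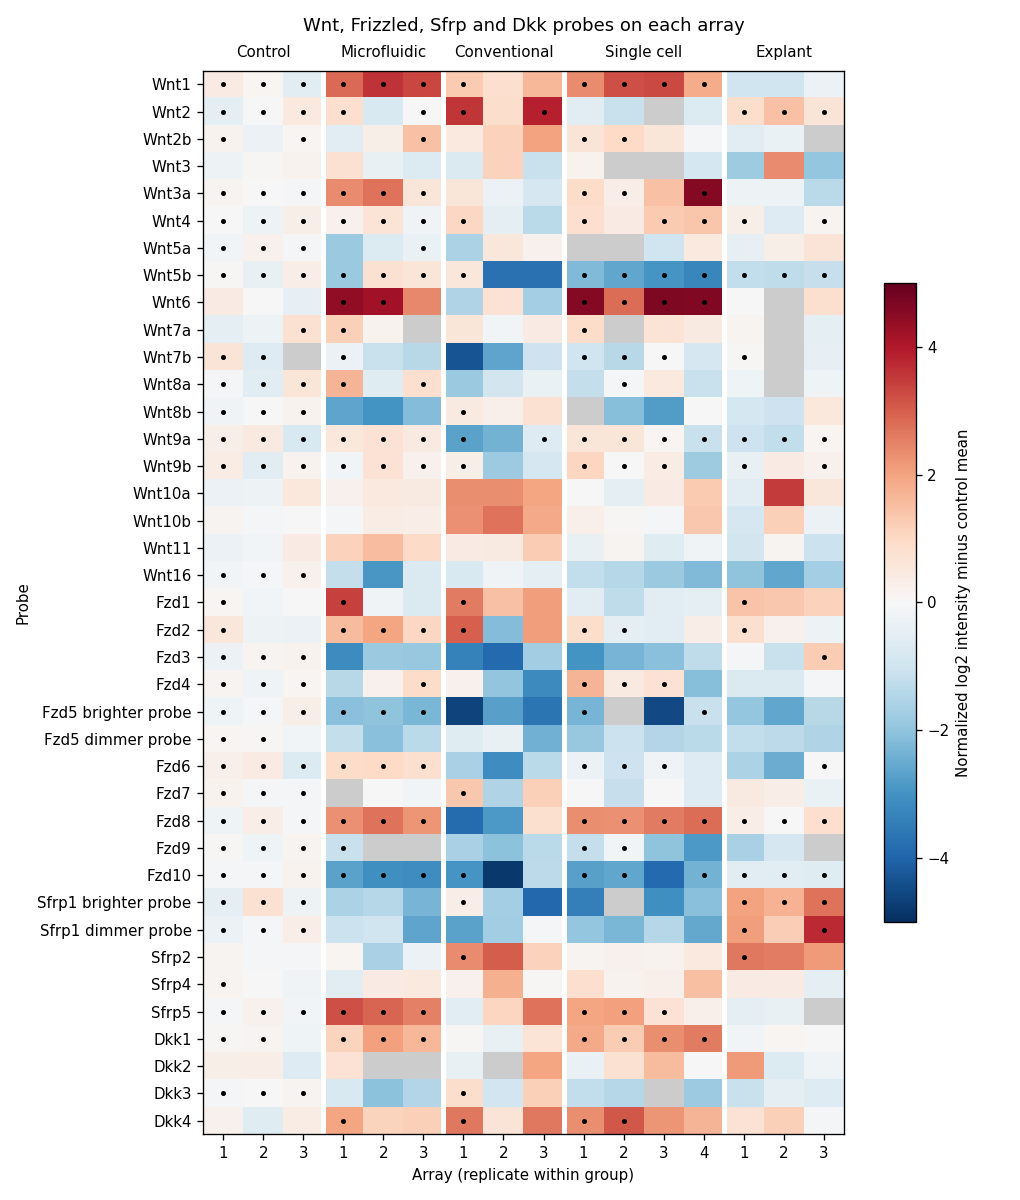
Each row is 1 of the 39 probes and each column 1 of the 16 arrays. Colour gives the normalized log2 intensity minus the mean of the 3 control arrays, black dots mark detected probes, and grey cells are spots marked bad. Wnt1, Wnt6, Fzd8, Sfrp5 and Dkk1 are red on the microfluidic and cell arrays, Fzd10 and Fzd3 blue there, and both Sfrp1 probes are red on the explant arrays.

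The effect of the mixer and the amplification was read from the microfluidic against the control arrays, which started from the same adult RNA. Of the 25 family probes tested, 6 rose and 8 fell. The probes that rose were Wnt1, Wnt3a, Fzd2, Fzd8, Sfrp5 and Dkk1, by 2.88-fold to 9.59-fold, and those that fell were Wnt8b, Wnt16, Fzd3, Fzd5, Fzd10, both Sfrp1 probes and Dkk3. The counts are 24% and 32% of the probes tested, and 23.9% and 35.1% of all 15460 probes tested were called higher and lower, so the family's share lay near the background. The median difference was -0.08 log2 units over the family and -0.43 over all tested probes, by limma with Benjamini-Hochberg adjustment at a threshold of 0.05. Of the 25 probes, 11 were detected on all arrays of both groups, 12 passed the filter through the control alone and 2 through the microfluidic arrays alone, so the counts describe only the probes that passed. Those 2 were Fzd2 and Dkk1, both called higher, and 6 of the 8 that fell passed through the control alone. Such entry favours the direction called, and without the filter the family calls were 9 higher and 9 lower.

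Among the ligands, Wnt1, which patterns the midbrain and signals through β-catenin, had net intensities of 8400, 5467 and 3264 on the control arrays and 34725, 41761 and 56553 on the microfluidic arrays. The groups lay apart, and the fitted level was 9.59-fold higher in the microfluidic arrays (log2 difference 3.26, SE 0.35, adjusted p = 0.000257 by limma, n = 3 and 3). Wnt3a, a ligand of the cortical hem, read 3001, 2036 and 1868 in the control and 8256, 6848 and 1722 in the microfluidic arrays. Microfluidic array 3 fell below the control in net intensity, and the fitted difference was 3.73-fold (log2 1.90, SE 0.54, adjusted p = 0.0185 by limma). Its adjusted p was 0.0836 with a spread shared by all arrays, 0.0547 or 0.062 without control array 2 or 3, and 0.052 without microfluidic array 2. Wnt6, which was too dim in the control to be detected at 2054, 1128 and 731, read 31501, 14388 and 5170 in the mixer. It was above the limit on microfluidic arrays 1 and 2 alone and so was not tested.

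Wnt8b and Wnt16 were lower in the mixer. Wnt8b, a marker of the cortical hem and hippocampal primordium, read 5939, 5518 and 6342 in the control and was not detected on the microfluidic arrays at 178, -7 and 342. It was at least 1.78-fold lower there (adjusted p = 0.000352 by limma). Wnt16 read 4825, 4058 and 5147 in the control and was undetected at 678, -32 and 1079 in the mixer, at least 1.42-fold lower (adjusted p = 0.0375 by limma). Without control array 1, 2 or 3 its adjusted p was 0.0787, 0.0834 or 0.111. Bounds of this kind set an undetected probe at the lowest intensity detected on its array.

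The other 7 ligands tested did not pass the threshold. Wnt9a was saturated at about the ceiling of the scanner on control arrays 1 and 2 and on all 3 microfluidic arrays, with 30294 on control array 3, so its fit (log2 0.56, adjusted p = 0.225 by limma) is limited by saturation. With median centring its difference was 1.74 log2 units and the groups did not overlap. Wnt5b, a ligand of β-catenin-independent signalling, read 64256, 55849 and 64342 in the control and 22301, 64795 and 64787 in the mixer, and the groups overlapped. Wnt4 and Wnt9b were detected on all 6 arrays with fitted differences of 0.24 and 0.27, SE 0.32 and 0.36. Wnt2, Wnt5a and Wnt8a differed by 0.03, -0.95 and 0.65, with adjusted p from 0.0867 to 0.965 by limma. Wnt7b, a ligand of the developing cortex and its vessels, was not tested, since its spot on control array 3 was marked bad. It read 16664 and 5914 on the other two control arrays and 4049, 1107 and 1564 in the mixer, of which only the 4049 was above the limit.

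Among the receptors, Fzd8 and Fzd2 rose and Fzd3, Fzd5 and Fzd10 fell. Fzd8, which signals through β-catenin, read 17581, 20022 and 15382 in the control and 64570, 64667 and 64580 in the mixer, where all 3 spots were saturated. It was at least 5.27-fold higher (adjusted p = 0.000432 by limma). Fzd10, a receptor expressed at the cortical hem, read 57463, 48361 and 54870 in the control and 6345, 2658 and 4787 in the mixer. The groups lay far apart, 7.75-fold lower in the mixer (log2 difference -2.95, SE 0.26, adjusted p = 0.000129 by limma).

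Further receptors followed in both directions. Fzd5, close to Fzd8 in sequence, read 17187, 14830 and 18493 on its brighter probe in the control and 1735, 1092 and 1596 in the mixer, 4.39-fold lower (adjusted p = 0.000457 by limma). Its dimmer probe, detected on 2 control arrays and no microfluidic array, was not tested. Fzd3, known for guiding axon tracts in the mouse forebrain, read 8384, 9054 and 9129 in the control and was undetected in the mixer at 205, 407 and 844. This put it at least 2.72-fold lower (adjusted p = 0.00219 by limma). Fzd2 read 12013, 5673 and 5478 in the control, where only the 12013 was above the limit, and 15046, 12915 and 10053 in the mixer. Its fitted difference was 2.88-fold (adjusted p = 0.00926 by limma), and 0.188 was the adjusted p when 1 spread was shared by all 16 arrays. Fzd2 had passed the filter through the microfluidic arrays alone, the group in which it was higher.

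Fzd4, Fzd6, Fzd7 and Fzd9 did not pass. Fzd6, which orients hair follicles in the mouse, differed by 0.90 log2 units (adjusted p = 0.0576 by limma) and passed without background correction, with median centring and with the authors' signal values, at adjusted p of 0.0444, 0.00715 and 0.0249. Fzd9 rested on 1 microfluidic array, because the spots on microfluidic arrays 2 and 3 were marked bad; it differed by -1.13 (adjusted p = 0.0611 by limma). Fzd4 differed by -0.09 log2 units, and Fzd7 was undetected on the microfluidic arrays (adjusted p = 0.828).

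Of the inhibitor probes that passed the filter, Sfrp5 and Dkk1 rose and both Sfrp1 probes and Dkk3 fell. The 3 probes that fell had passed through the control alone, and Dkk1 through the microfluidic arrays alone. Sfrp5 read 5976, 5985 and 4612 in the control and 48649, 21136 and 26454 in the mixer. The groups lay apart by 7.32-fold (log2 2.87, SE 0.29, adjusted p = 0.000194 by limma). Dkk1, a blocker of the Lrp co-receptors, read 2757, 2404 and 1668 in the control, the last of these below the limit, and 2529, 3629 and 4781 in the mixer. In net intensity these overlapped, while the fitted level was 3.04-fold higher in the mixer (adjusted p = 0.00383 by limma).

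The inhibitors that fell were undetected in the mixer. Sfrp1, which binds Wnt ligands and is made by forebrain progenitors, read 6331, 11353 and 5973 on its brighter probe in the control and 884, 518 and 436 in the mixer. The dimmer probe read 2681, 2689 and 3686 against 470, 183 and -5. Both fell, the brighter by at least 2.31-fold (adjusted p = 0.00837 by limma) and the dimmer with no usable bound (adjusted p = 0.0242), and both missed the threshold with a spread shared by all arrays, at 0.0823 and 0.0826. The dimmer probe also missed it without control array 2 or 3, at 0.0634 and 0.0847. Dkk3, a divergent Dickkopf, read 2898, 2545 and 2933 in the control and 590, -7 and 245 in the mixer, with no usable bound either (adjusted p = 0.0121 by limma).

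**Figure D3:**
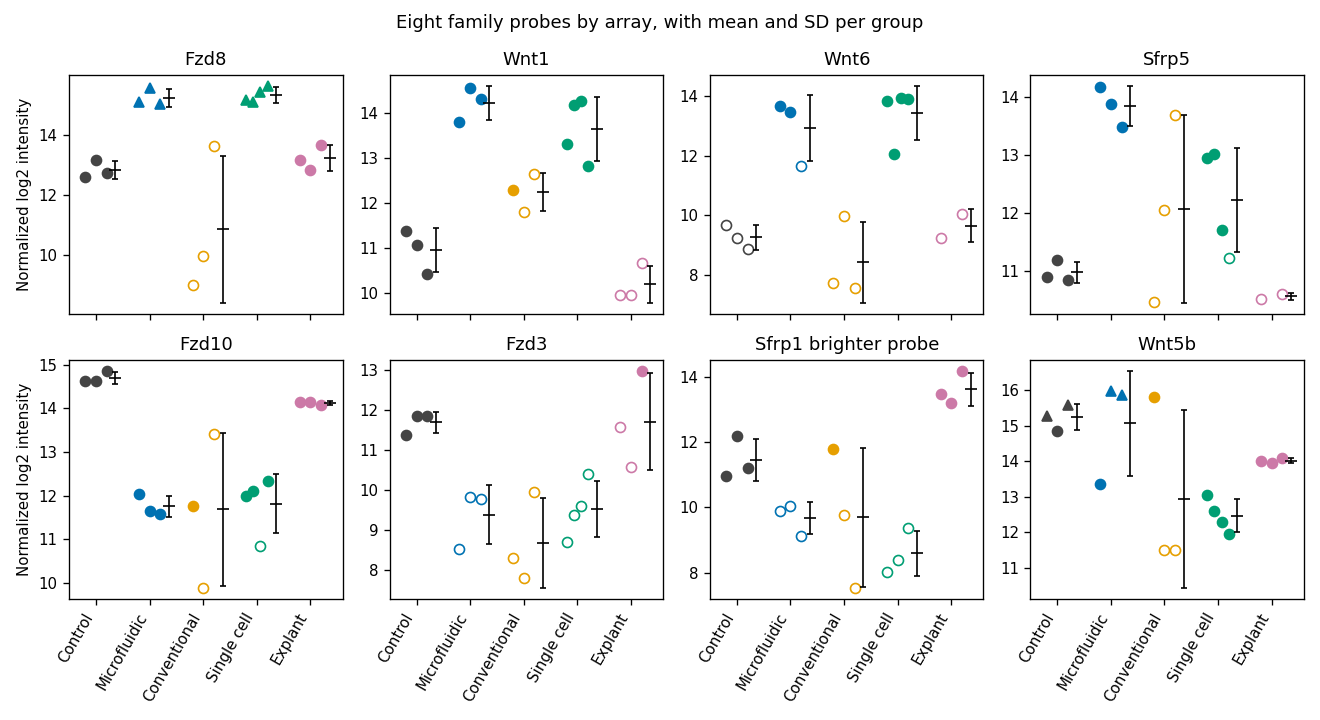
Each panel shows 1 probe, with normalized log2 intensity on the vertical axis and the 5 groups on the horizontal axis. Filled symbols are detected, open symbols undetected, triangles saturated, and black bars give the mean and SD over the arrays of the group. Fzd8, Wnt1, Wnt6 and Sfrp5 stand higher on the microfluidic than on the control arrays, Fzd10 and Fzd3 lower, and Sfrp1 is highest in the explants.

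The tube reaction at the same RNA amount was compared with the control in turn. Of 23 family probes tested, all of which passed the filter through the control alone, 1 rose and 5 fell. These are 4.35% and 21.7%, and 6.41% and 23.8% of all 13796 tested probes were called higher and lower. The 5 that fell were Fzd3, Fzd5, Fzd6, Fzd9 and Fzd10, of 8 Frizzled probes tested. Probes that enter through the control alone favour falls, and without the filter on dim probes the family calls were 5 higher and 5 lower. The family's median difference was -1.04 log2 units against -0.80 over all tested probes.

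Fzd5 read -137, 109 and 13 on its brighter probe in the tube, none above the limit, against at least 14830 in the control (adjusted p = 0.00359 by limma). Its call held in all 15 alternatives tried. Fzd10 read 624, 92 and 2080, detected only on conventional array 1, and was called lower than the control (adjusted p = 0.0284 by limma). Its fitted 8.12-fold rests on conventional arrays 2 and 3, where it was undetected, and is not a measured size. Fzd3, Fzd6 and Fzd9 were undetected in the tube, with net intensities from -168 to 217, and had adjusted p of 0.01, 0.0416 and 0.0272. No fold is given for them or for Fzd5, because the lowest detected intensity on conventional arrays 2 and 3 was above 13.8 log2 units.

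The 1 ligand that rose was Wnt2, which read 6178, 687 and 15356 in the tube and 6663, 7489 and 10103 in the control. The net intensities overlapped, and on the normalized scale it lay 6.91-fold higher in the tube (log2 2.79, SE 0.82, adjusted p = 0.0349 by limma). With median centring it did not pass (adjusted p = 0.0762), nor without conventional array 1 (0.0959) or 3 (0.0868) or any control array (0.0862 to 0.127). With median centring 6 family probes were called, all lower. Leaving out control array 1, 2 or 3 left 2, 1 and 1 called. The remaining 17 probes did not pass, among them Wnt1 (1.28 log2 units, adjusted p = 0.0877), Wnt9a (-1.90, 0.0646) and Fzd8, undetected in the tube (adjusted p = 0.203).

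The mixer was then set against the tube at the same RNA amount. Of 13 probes tested, all of which passed the filter through the microfluidic arrays alone, 4 were higher in the mixer and 0 lower by limma, with 30.8% of the family and 23% of all 6950 tested probes called higher, and 4.62% of all called lower. The 4 were the ligands Wnt1 and Wnt9a and the receptors Fzd6 and Fzd8. The family's median difference was 1.78 log2 units and that of all tested probes 1.05. Since the probes entered through the group in which they were bright, the filter favours this direction, and without it the family calls were 4 higher and 3 lower.

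Fzd8 read -22, 101 and 2409 in the tube, none above the limit, against saturation on all 3 microfluidic arrays, at least 4.43-fold higher (adjusted p = 0.0192 by limma). Wnt9a read 723, 638 and 3140 in the tube, the 638 below the limit, against saturation in the mixer, at least 3.25-fold (adjusted p = 0.0257). Wnt1 read 886, 451 and 1281 in the tube, where only the 886 was above the limit, and was called higher in the mixer (adjusted p = 0.0293 by limma). Its fitted 3.96-fold (log2 1.98, SE 0.55) rests on tube arrays where it was undetected, and is not a measured size. Fzd6 read 12937, 8246 and 12535 in the mixer and was undetected in the tube at 167, -47 and 217 (adjusted p = 0.0123, no usable bound). Each of the 4 calls was lost when microfluidic array 1 or 2 was left out, and Wnt1, Wnt9a, Fzd6 and Fzd8 also had adjusted p of 0.113, 0.0842, 0.0523 and 0.0574 without microfluidic array 3, a fit in which 1 other family probe passed. Wnt9a had 0.0564 without conventional array 1. Median centring raised the count to 8 of 13, all higher, and the split over all probes from 1599 higher and 321 lower to 3312 and 221.

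**Figure D4:**
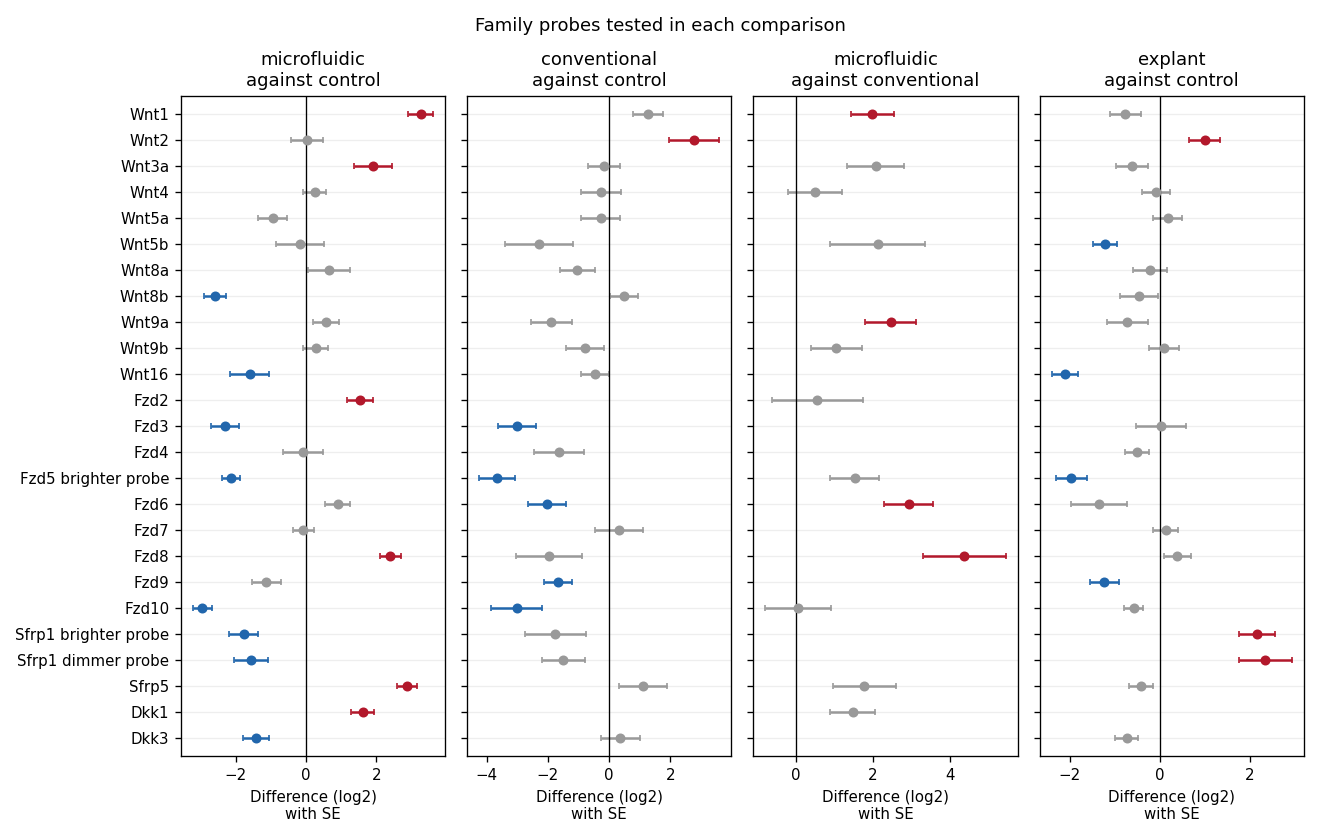
The 4 panels give the fitted log2 difference of each tested family probe (horizontal axis) with its SE. Red points were called higher, blue points lower and grey points did not pass. Fzd3, Fzd5 and Fzd10 are blue in both comparisons of 10 pg with the control, and Sfrp1 is blue in the mixer and red in the explants.

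The explants were compared with the adult control to see embryonic against adult forebrain RNA without amplification. Of 23 family probes tested, 3 were higher in the explants, namely both Sfrp1 probes and Wnt2, and 4 were lower, namely Wnt5b, Wnt16, Fzd5 and Fzd9. These are 13% and 17.4% of the family probes, beside 15.2% and 26.8% of all 13829 tested probes. The median difference was -0.46 log2 units over the family and -0.30 over all. In 17 of the 23 the filter was passed through the control alone. In such bulk samples, fewer cells of a type and less RNA per cell cannot be told apart.

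Sfrp1 read 8668, 4721 and 9248 on its brighter probe in the explants, within the range of its control values of 5973 to 11353 or just below it. On the normalized scale, which sets all arrays to 1 distribution, the levels lay apart at 13.61 ± 0.51 against 11.45 ± 0.65 (SD, n = 3 each), 4.48-fold higher in the explants (log2 2.16, SE 0.41, adjusted p = 0.00499 by limma). The dimmer probe read 4500, 1154 and 8337 in the explants, the 1154 below the limit, and agreed in direction at 5.10-fold (log2 2.35, SE 0.59, adjusted p = 0.0158). The brighter probe missed the threshold with a spread shared by all 16 arrays (adjusted p = 0.0843), and the dimmer without control array 1 or 2 (0.0568 and 0.0511). Wnt2 read 4757, 4088 and 3172 in the explants, so that every explant array lay below every control array in net intensity. On the normalized scale Wnt2 was 2-fold higher in the explants (adjusted p = 0.0474 by limma). It missed the threshold in 10 of 15 alternatives, with adjusted p up to 0.375. Among these were median centring (0.181) and leaving out control array 1 or 2 (0.16 and 0.116) or explant array 1 or 2 (0.0887 and 0.118).

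Wnt5b read 11815, 7918 and 8804 in the explants against 64256, 55849 and 64342 in the control, where arrays 1 and 3 were saturated. The fit put it 2.32-fold lower (adjusted p = 0.00866 by limma), a size limited by that saturation, and it missed the threshold with a spread shared by all arrays (0.419). Wnt16 was undetected in the explants at -177, -1361 and 195 (adjusted p = 0.00145, no usable bound), and its call held in all 14 alternatives. Fzd5 on its brighter probe was undetected at 1552, -107 and 1987, at least 2.34-fold lower (adjusted p = 0.00397). Fzd9, a receptor of the hippocampus, was undetected on the explant arrays, with the spot on array 3 marked bad, at least 1.20-fold lower (adjusted p = 0.0247), and missed the threshold without explant array 1 (0.121) or any control array (0.0535 to 0.0799). With a spread shared by all arrays 2 family probes were called, and without explant array 3 there were 11. Leaving out control array 1 or 2 left 4.

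The other 16 probes did not pass in this comparison. Fzd8 read 7144, 3690 and 7009 in the explants and differed by 0.40 log2 units (SE 0.30). Fzd10 read 12651, 8966 and 8768 and differed by -0.58 (adjusted p = 0.0658), and with median centring it passed as lower (0.00642). Fzd3, detected only on explant array 3 at 4887, differed by 0.02 with an SE of 0.56. Dkk3 was undetected in the explants (adjusted p = 0.0524). With median centring the split of all calls moved from 2099 higher and 3706 lower to 1572 and 4492, and that of the family from 3 and 4 to 2 and 5.

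Markers of the labelled tissue were checked beside these values. Of 11 ganglionic eminence markers on the array, 9 to 10 were detected on an explant array and 8 on a control array, and 6 of the 9 tested were higher and 1 lower in the explants. Their summed net intensity was 117963 to 197581 in the explants and 129678 to 186204 in the control. Of 8 pallial markers, 2 to 4 were detected on an explant array and 4 to 5 on a control array. Among the 4 pallial markers tested, 1 was higher and 1 lower in the explants. All 5 adult neuron markers were lower in the explants, as were 3 of 5 astrocyte, 4 of 4 oligodendrocyte and 4 of 5 meningeal and fibroblast markers tested. Of 6 endothelial markers tested, only 1 was lower. The summed level of the 5 choroid plexus markers was 930 to 1617 in the explants, with 0 of them detected, and 70059 to 72445 in the control, with 3 detected. Summed over 6 meningeal and fibroblast markers it was 7314 to 12032 against 79951 to 93402. Their part in the Wnt family differences was not tested.

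In the individual cells the family showed a few bright members and many undetected ones. Of the 39 probes, 6 were detected on all 4 cells, 19 on at least 2 and 18 on none. Detection on all 4 cells held for 15.4% of the family and 17.1% of all gene probes. Detection on none held for 46.2% and 40.9%, so the family lay near the background. The 6 were Wnt1, Wnt5b, Wnt6, Wnt9a, Fzd8 and Dkk1. Fzd8 was saturated on all 4 cells, with net intensities of 64231, 64408, 64345 and 64375. Wnt1 read 24633, 56941, 30958 and 4782, and Wnt6 read 38836, 8967, 23606 and 13110. Neither Wnt1 nor Wnt6 was detected on any explant array, where Wnt1 read 531, -238 and 1227.

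Wnt9a, a ligand of β-catenin signalling, was saturated on cells 1 and 2 and read 49098 and 9438 on cells 3 and 4, and it was detected on all 3 explant arrays as well at 9316, 5659 and 13726. Wnt5b read 19413, 15264, 5157 and 2335 on the cells. Dkk1 kept within a narrow range at 5890, 3903, 5036 and 3671, but was not detected on any explant array. Cells 3 and 4 detected fewer members than cells 1 and 2, and fewer of all probes, 33.33% and 25.29% against 43.12% and 48.33%. Of the 11 ganglionic eminence markers the cells detected 3 to 8, with a summed net intensity of 24956 to 204689, with Dlx2 on all 4 cells, Prox1 and Sp8 on 3, and Gad1, Dlx1 and Nr2f2 on 1 each. Of 8 pallial markers the cells detected 0 to 5, with a summed net intensity of 7513 to 68508. Emx1, Emx2, Tbr1, Eomes and Neurod2 were each on 3 cells, and Neurod6, Pax6 and Neurog2 were on no cell.

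A further group of members differed from cell to cell. Wnt3a read 2255 and 1476 on cells 1 and 2, was below the limit on cell 3 and reached 24958 on cell 4. Wnt4, a ligand of kidney and gonad development, read 9998, 9005 and 5213 on cells 1, 3 and 4, and its 7903 on cell 2 was below the limit. Wnt9b, Fzd4, Fzd6, Wnt7b and Sfrp5 were detected on cells 1, 2 and 3 but not on cell 4, Fzd4 at 8430, 2983 and 1908 and Sfrp5 at 18030, 22256 and 2988.

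Fzd10 was detected on cells 1, 2 and 4 at 7108, 9273 and 3174. Fzd2 and Fzd9 were detected on cells 1 and 2 alone, as were Wnt2b and Dkk4, and Fzd5 on cells 1 and 4 at 1458 and 1793. Cell 4 came from another scan session than the other cells. With 1 cell to an array, a difference between cells cannot be told apart from a difference between reactions.

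Sfrp1 was seen in none of the 4 cells on either probe, at 94, 580, 4 and 252 on the brighter and 146, 113, 79 and -14 on the dimmer, although the explants were the group in which its normalized level was highest. Fzd3, Fzd7, Wnt2, Wnt5a, Wnt8b, Wnt16, Sfrp2 and Dkk3 were likewise undetected on every cell. Of the 6 family probes detected on all 3 explant arrays, 4 were detected on at least 3 cells and 2, Wnt2 and Sfrp1, on none. Over all gene probes, 50.3% of the 2851 detected on all explant arrays were detected on at least 3 cells and 23.5% on none.

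The members seen in the cells were largely those seen in the mixer with adult RNA. Of the 13 family probes detected on all 3 microfluidic arrays, 11 were detected on at least 3 cells, or 84.6%, and the same held for 74.8% of all 6805 such gene probes. Of the 14 family probes detected on at least 3 cells, 6 were detected on no explant array, as were 4010 of 7435 over all gene probes. Some markers of cell types other than neurons showed the same, and others did not. Col1a2, Dcn and Col3a1, matrix genes of fibroblasts, were detected on all 4 cells and all 3 microfluidic arrays, with Dcn and Col3a1 on no explant array. Mag, a myelin gene of oligodendrocytes, was detected on 3 of 4 cells and no explant array. From the same lists, Lum, Igf2 and Mog were detected on no cell, as were the astrocyte genes Gfap, Slc1a2 and Aldh1l1. Ttr, a choroid plexus gene, was detected on all 3 microfluidic arrays and no cell. Summed over the 6 meningeal and fibroblast markers, the net intensity was 42415 to 108659 on the cells and 54220 to 78576 on the microfluidic arrays. The part of other cells or of amplification in the family's signals was not tested.

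Mixer and unamplified arrays were set side by side in both materials, since the adult pair (microfluidic minus control) and the embryonic pair (cells minus explants) share no array. Across the 39 family probes the 2 differences had a Pearson correlation of 0.75 and a Spearman correlation of 0.74, and over 23826 gene probes the values were 0.67 and 0.67. Both differences of a probe come from the same spotted sequence and from arrays normalized together, so the correlation is given as a description. In 7 family probes every amplified array lay above every unamplified array in both materials, and in 5 below. These are 17.9% and 12.8% of the family, beside 17.6% and 15.7% of all gene probes, so the family did not stand out. No family probe was apart in opposite directions, beside 2.69% of all gene probes.

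The 7 higher in both were Wnt1, Wnt3a, Wnt6, Fzd8, Sfrp5, Dkk1 and Dkk4. Dkk4 was detected on only 1 microfluidic array and 2 cells, and had no usable bound in the embryonic pair. Wnt6, undetected on every control and explant array, was at least 9.63-fold higher in the adult pair and at least 5.15-fold in the embryonic pair. Wnt1 was 9.59-fold higher in the adult pair and, undetected in the explants, at least 4.65-fold in the embryonic pair. Fzd8, saturated on all amplified arrays of both, was at least 5.27-fold and at least 4.30-fold higher. The 5 lower in both were Fzd3, Fzd10, both Sfrp1 probes and Dkk3. Sfrp1 on its brighter probe, undetected on all amplified arrays, was at least 2.31-fold lower in the adult pair and at least 6.86-fold in the embryonic pair. Fzd10 differed by -2.95 and -2.31 log2 units, and Dkk3 was detected on no cell and no explant array. Under the other scalings and without cell 4 or explant array 2, 7 or 8 probes were higher and 4 to 7 lower in both.

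**Figure D5:**
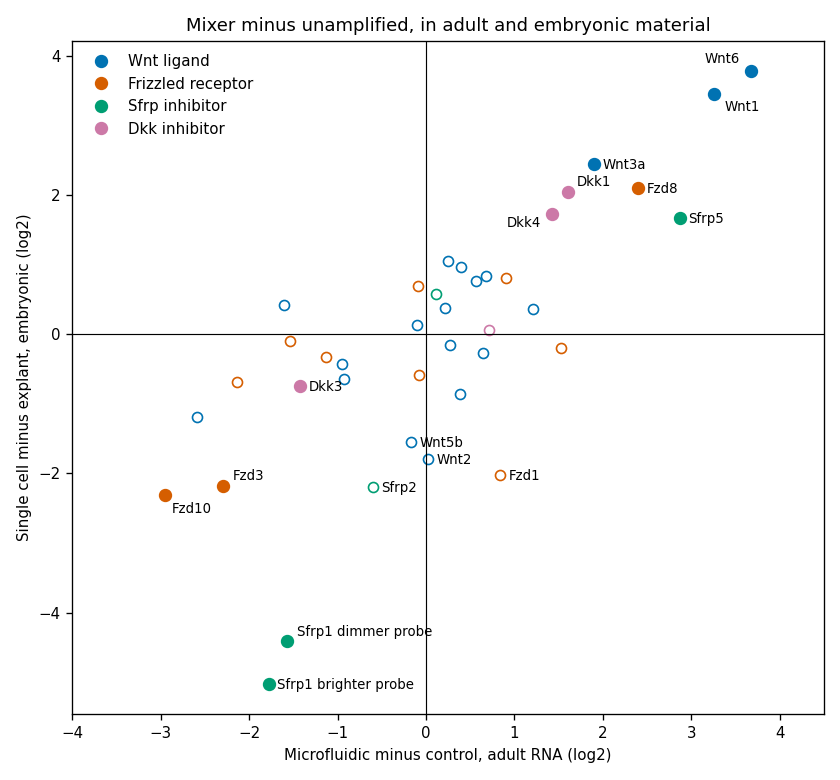
Each point is 1 family probe, placed by its microfluidic minus control difference (horizontal axis, log2) and its single cell minus explant difference (vertical axis, log2). Probes undetected in a group have no exact position. Filled points have amplified and unamplified arrays that do not overlap in either material. Wnt6, Wnt1 and Fzd8 lie at the upper right, and Fzd10, Fzd3 and Sfrp1 at the lower left.

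Beyond the ligands, receptors and secreted inhibitors, 66 other genes of the pathway were listed, of which 64 were on the array with 75 probes. Counted on the brightest probe of each gene, 13 of 46 tested genes were higher and 15 lower in the microfluidic than in the control arrays, or 28.3% and 32.6% beside 23.9% and 35.1% of all probes. In the tube against the control 4 of 42 were higher and 13 lower, or 9.52% and 31% beside 6.41% and 23.8%. In the mixer against the tube 6 of 25 were higher and 2 lower, or 24% and 8% beside 23% and 4.62%. In the explants against the control 7 of 42 were higher and 6 lower, or 16.7% and 14.3% beside 15.2% and 26.8%. The medians were -0.21, -0.85, 0.91 and -0.10 log2 units, where all tested probes had -0.43, -0.80, 1.05 and -0.30.

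In the mixer the nuclear cofactor Pygo2 read 7359, 6474 and 5353 in the control and was saturated on all 3 microfluidic arrays, at least 16.9-fold higher (adjusted p = 5.98e-05 by limma). The Wnt signal transducer Dvl2 was undetected in the control at 692 to 1093 and read 19918, 5051 and 13419 in the mixer, at least 8.91-fold higher. The target Ccnd1 read 2133, 1554 and 3027 against 16211, 45767 and 14395, a 12.2-fold rise, with the 1554 below the limit. Falling genes included Vangl2, a planar polarity protein, by at least 3.16-fold, the cofactor Bcl9l by 7.20-fold and the kinase Csnk1d by at least 6.56-fold.

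β-Catenin itself, Ctnnb1, was saturated on all control arrays and read 8933, 4697 and 60297 in the mixer, at least 5.42-fold lower (adjusted p = 0.00811 by limma). Axin2, a feedback target of β-catenin, rose 2.92-fold in the mixer (adjusted p = 0.00522), while the co-receptor Lrp6 was at least 1.37-fold lower (adjusted p = 0.0167). Tcf7l2, a TCF factor, read 3342, 2278 and 2786 in the control and 2717, 64624 and 64729 in the mixer, and passed as higher (adjusted p = 0.0183). Microfluidic array 1 lay within the control range and the other two were saturated, so no size is given. Porcn, which attaches the lipid to Wnt ligands, differed by 0.78 log2 units (adjusted p = 0.234). Gsk3b, the kinase that marks β-catenin for destruction, was saturated on all microfluidic arrays and 1 control array on its brightest probe, which therefore says little (adjusted p = 0.775), and the next probe, saturated on all control arrays, was at least 2.41-fold lower (adjusted p = 0.00329). Lef1 passed the filter in no comparison.

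In the tube against the control, Prickle1, a planar polarity gene, the receptor Lgr4 and the inhibitor Dact1 passed as higher, on the normalized scale. Their net intensities did not all lie higher there: Prickle1 read 11020, 31230 and 8980 in the tube against 17871, 15440 and 26085 in the control, with only tube array 2 above the control. Lgr4 read 1751, 3521 and 1303 in the tube against 8127, 2738 and 3520 in the control, and Dact1 was lower on every tube array, above the limit only at 689, than on the control arrays at 5195, 4689 and 3369. Pygo1 was at least 3.53-fold lower, and Dvl3 and the brightest probe of Csnk1a1 were undetected in the tube. The other Csnk1a1 probes were detected on conventional array 1, at 900 and 1162. They did not pass, with differences of 1.52 and -0.005 log2 units (adjusted p = 0.0702 and 0.997 by limma). Mixer against tube, Pygo2 was at least 4.05-fold higher, and Axin2 was higher with no fold given (adjusted p = 0.0135). Ccnd1 was above the limit on 1 tube array only, so its fitted 12.3-fold rise is not a measured size. Apc2 and Ptk7 were 8.36-fold and 6.49-fold lower on the normalized scale, while their net intensities overlapped. Apc2 read 2812, 1690 and 5105 in the mixer against 2101, 4065 and 4545 in the tube. Ptk7 read 18539, 7348 and 21339 against 48712, 14040 and 40843. In the explants against the control, Dact1 was 4.04-fold, the kinase Csnk1a1 2.62-fold and Pygo2 2.65-fold higher on the normalized scale. In net intensity Csnk1a1 was lower on every explant array, at 14980, 9127 and 9698 against 21013, 16152 and 18416. Pygo2 read 5878, 3317 and 3332 against 7359, 6474 and 5353, and Dact1 overlapped, with 1 explant array below the limit. Of the other Csnk1a1 probes, 1 was 3.98-fold higher in the fit and 1 did not pass (adjusted p = 0.438 by limma). Kremen2, a receptor for Dkk proteins, was 5.29-fold lower. Prickle2 was above the limit on 1 explant array only, so its fitted 2.66-fold fall is not a measured size. Sostdc1, a secreted inhibitor, was undetected in the explants and lower (adjusted p = 0.00198 by limma). Lrp6 was 1.91-fold higher there in the fit (adjusted p = 0.0338 by limma), although it was above the limit on 1 explant array only. In net intensity it read 1612, 1123 and 2574 in the explants against 4793, 3946 and 4558 in the control. Ctnnb1, Axin2, Tcf7l2, Gsk3b and Porcn did not pass in the explants (adjusted p from 0.184 to 0.908).

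Promoters were searched for the letters to which TCF and LEF factors are known to bind, because several of these genes are themselves known targets of the pathway. RefSeq gave 28 promoter windows for 25 of the 37 genes, each of 300 bases around a start site in build GRCm38.p6. The motifs were CTTTGAA and CTTTGAT, searched on both strands. At least 1 of them was found in 3 of the 28 windows, or 10.7%, and in 8.65% of all 32851 windows. The windows of Dkk1 and Wnt5b are shown, since these are the members detected on the arrays whose windows held a motif, with the match in capitals. Dkk1 lies at chr19:30549447-30549746 on the minus strand and the Wnt5b window, 1 of 3 for that gene, at chr6:119449337-119449636 on the minus strand.
Dkk1: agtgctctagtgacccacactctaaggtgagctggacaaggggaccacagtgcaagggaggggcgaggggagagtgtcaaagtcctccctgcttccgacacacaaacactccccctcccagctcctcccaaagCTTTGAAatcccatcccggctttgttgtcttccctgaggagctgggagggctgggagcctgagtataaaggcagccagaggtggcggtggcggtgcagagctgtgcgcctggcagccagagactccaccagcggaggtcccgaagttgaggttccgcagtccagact
Wnt5b: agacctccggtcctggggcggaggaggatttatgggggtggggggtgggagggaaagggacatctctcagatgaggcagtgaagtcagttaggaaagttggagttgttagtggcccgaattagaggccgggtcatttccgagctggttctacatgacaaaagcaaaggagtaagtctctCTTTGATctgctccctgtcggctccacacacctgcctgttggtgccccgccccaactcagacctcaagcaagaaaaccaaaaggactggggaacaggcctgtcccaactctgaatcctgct
The match in Dkk1 is CTTTGAA and that in Wnt5b CTTTGAT. A match of letters is a description and not a binding site, and windows without one say nothing about the factors.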

How the data were processed

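Gene expression was measured on 16 single-colour spotted arrays in 5 groups taken from the labels. The deposited scanner files hold, per the file headers, the foreground and background intensity of 25344 spots, written by Mapix (versions 2.2.4 to 2.5.1) and neither background-subtracted nor normalized, with a ceiling of 65535. The authors' signal values in the series table are linear, their scaling and centring are not stated in the sources used here, and they served only as an alternative. Spot marks in the deposited files are codes without a scale. Spots marked bad were dropped, except saturated ones.

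Background correction by normexp (offset 50), quantile normalization over the 16 arrays and log2 transformation were done in limma 3.58.1 under R 4.3.3. Each comparison was fitted with lmFit and eBayes (two-sided, each with its own spread) on the probes that every array of 1 or both groups detected, and p-values were adjusted by Benjamini-Hochberg over all tested probes. Lower bounds replace folds where a whole group was undetected or the brighter group saturated, with undetected spots of the dimmer group at their array's lowest detected intensity. The fit was tested on simulated data. Of the 39 probes, 37 were matched by accession to RefSeq and 38 carry the symbol on the platform. Members are named where they passed a test, were detected on all arrays of a group or on at least 2 cells, and pathway genes where they are among the 3 smallest p in a direction or on a list of 7 anchor genes. For genes with more than 1 probe the brightest is given first. The members and lists were chosen with earlier results of these data known. Alternatives were another background correction, scaling, filter, spread, detection limit, replicate block and each array left out. No block for scan session could be fitted, because no session holds more than 1 group.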

Additional observations from a re-analysis of the deposited data

Results flagged for a closer look

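In the 4 cells, 31 family probes could be checked for a cell far from the other three, the remaining probes having a spot marked bad, and 2 had one. Wnt6 was lowest in cell 2, at a normalized log2 intensity of 12.06, with 13.84 in the nearest cell, a gap of 0.95 of the whole range. Fzd1 was lowest in cell 2 at 8.70, with 9.41 in the nearest cell, a gap of 0.887 of the range, and it was undetected on every cell. Chance alone would mark about 1 in 20 such groups.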

How the results depend on the processing

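No alternative reversed a called family probe. Requiring detection on all arrays of both groups moved the count of called probes to 2748 in all and 6 in the family for microfluidic against control, to 182 and 0 for conventional against control, to 86 and 0 for microfluidic against conventional and to 1436 and 4 for explant against control. Both conventional comparisons then had no family probe left to test. Without the filter on dim probes the tube against the control had 6962 called probes, 10 of them in the family (5 higher and 5 lower), and the mixer against the tube had 7 in the family (4 higher and 3 lower). A spread shared by all 16 arrays gave 3010 for mixer against tube and 1762, with 2 in the family, for explant against control. Median centring gave 3533 and 8 for mixer against tube. The median difference of all probes moved with the scaling, for microfluidic against control from -0.43 to -0.26 with the authors' values and -0.16 with median centring.

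Leaving out 1 array at a time gave 7656 to 9704 called probes and 11 to 17 in the family for microfluidic against control, 1886 to 6036 and 1 to 9 for conventional against control, 574 to 2599 and 0 to 6 for microfluidic against conventional, and 4127 to 6238 and 4 to 11 for explant against control. The labels name no pairing. Deviations of same-numbered arrays from their group means correlated between -0.18 and 0.09, which cannot decide whether the samples were paired. With the replicate block the family counts were 14, 4, 3 and 5. The block cost Fzd6 and Fzd9 in the tube, Wnt1 in mixer against tube, and Fzd9 and Wnt2 in the explants their call.

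With the limit at 3 SD of background, the family probes detected per control array fell to a mean of 20.67 from 27. With the 95th percentile of blank spots on every array the means were 36.67 in the control, 33.33 in the microfluidic, 14.33 in the conventional, 28.0 in the cell and 20.33 in the explant arrays, against 27, 17.67, 5.67, 15 and 10. Filling the missing background SD was added after seeing the data for the tests and gave 4167 and 1906 called probes in the conventional comparisons.
The block for scan session was not run, since no session holds arrays of more than 1 group. The other scalings and the fits without cell 4 or explant array 2, for the adult and embryonic pairs, were also chosen after seeing the data.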
